A study of Mus musculus with 32 samples.

Results

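The 43 genes described here are genes of the distal nephron and collecting duct of the kidney, chosen by name as genes of the thick ascending limb, the distal convoluted and connecting tubules, the WNK kinase pathway and the principal and intercalated cells of the collecting duct. All 43 of the 43 symbols were found among the 53700 genes of the counts table, and all 43 passed the filter on low counts that 13961 genes passed. RNA was sequenced from 32 kidneys of male C57BL/6 mice. Every mouse was of the iKspCre-*Pkd1*del line, in which a Cre recombinase that tamoxifen switches on is driven by the promoter of *Cdh16* (Ksp-cadherin), a gene of the tubule epithelium that is most active in the distal nephron and collecting duct, and loxP sites stand on either side of exons 2 to 11 of *Pkd1*, the gene most often mutated in autosomal dominant polycystic kidney disease. The 12 kidneys of the group PKD came from mice that received tamoxifen (150 mg/kg) on days 18 and 19 after birth and were collected at 95 days of age. The 12 kidneys of the group PKD + Salsalate came from mice treated in the same way that also ate chow with salsalate (2.5 g/kg), a prodrug of salicylate, for 2 weeks from day 81. The 8 kidneys of the group wildtype came from mice that carry the same alleles but received no tamoxifen, and their labelled age is 109 days, although the growth protocol gives 1 age of collection for all mice. Disease, tamoxifen and age therefore cannot be told apart in a comparison with wildtype. The sequenced PKD mice were picked in the study from larger groups for a similar, mild cystic phenotype.

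Between these tubule segments the kidney sets the final salt, water and acid content of the urine. The thick limb reabsorbs sodium chloride without water through the cotransporter NKCC2, the distal convoluted tubule reabsorbs more through the thiazide-sensitive cotransporter NCC, which WNK kinases switch on, and the connecting tubule reclaims calcium. In the collecting duct, principal cells take up sodium through the channel ENaC and water through aquaporins under aldosterone and vasopressin, while type A intercalated cells secrete protons, and type B intercalated cells secrete bicarbonate.

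Levels are given as CPM, that is counts on the scale of 1 common library size, with factors from the trimmed mean of M-values (TMM), and differences as the log2 fold change (log2FC) of edgeR's quasi-likelihood test with its standard error (SE). Adjusted p-values are those of this test with the Benjamini-Hochberg adjustment over all 13961 genes, and a gene is called differentially expressed at an adjusted p under 0.05. Libraries held 11193136 to 109807664 counts on genes, and in the shallowest a CPM of 1 stood for about 11 counts. An R closes the library names of 5 wildtype kidneys, here called the R set, but not those of the other 3, and no name of a PKD or PKD + Salsalate library closes this way. The wildtype sets differed at an adjusted p under 0.05 in 48.1% of all genes tested and in 28 of the 43 members, of which 11 were higher and 17 lower in the R set. Each comparison with wildtype was therefore also made against each set alone, and a change is said to hold against both sets where the adjusted p was under 0.05 with the same sign against all 8 wildtype kidneys, against the 5 and against the 3. Changes from wildtype of genes outside the 43 are given against all 8 wildtype kidneys unless a set is named. Whether those changes hold against both sets is then not stated. The counts are of kidney tissue with all its cell types, so fewer cells of a type and less RNA per cell cannot be told apart. Kidneys were bisected in the study before they were frozen or fixed. Whether the part of the kidney that was sampled differed between libraries was not tested.

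Transcript levels of the members spanned a wide range. Per kilobase of annotated exon, the wildtype mean was highest for *Umod* (782 CPM per kb), which encodes uromodulin, the most abundant protein of normal urine, followed by *Fxyd2* (638 CPM per kb), a small partner of the sodium pump that other nephron segments also express. The order of these genes depended on the wildtype set, with *Umod* at 616 and *Fxyd2* at 718 CPM per kb in the R set and at 1057.5 and 506 CPM per kb in the other 3. The lowest was that of *Elf5* (0.406 CPM per kb), an epithelial transcription factor of principal cells. Markers of some other cell types differed between wildtype and PKD kidneys, and the sums of others overlapped. The summed level of 6 fibroblast markers was 313.5 to 483 CPM in wildtype and 771 to 1302 CPM in PKD kidneys, that of 7 macrophage markers 131 to 187 and 272 to 399 CPM, and that of 7 tubular injury markers 384 to 678 and 1442 to 3181 CPM. The summed level of 10 proximal tubule markers was 9006 to 11910 CPM in the R set, 15900 to 18740 CPM in the other 3 and 11100 to 14520 CPM in PKD kidneys. All 5 podocyte markers were lower in PKD, and their sum was 241 to 370 CPM in wildtype and 213 to 245 CPM in PKD kidneys. The sum of 6 endothelial markers was 329 to 551 CPM in wildtype and 339 to 369 CPM in PKD kidneys, with 3 markers lower and 2 higher. That of 3 urothelial markers was 6.09 to 17.6 and 4.26 to 10.9 CPM. The summed level of 7 liver markers was 43.7 to 3574 CPM in PKD kidneys and at most 87.0 CPM without PKD replicate 10, in which *Alb*, the gene of serum albumin, was at 1930 CPM. Without this kidney the counts given below for the first and the second comparison were unchanged, with 24 members lower and 5 higher in PKD than in wildtype and 0 called between PKD + Salsalate and PKD. No marker of these lists was at 0 in all kidneys. The part of these shifts in the values below was not tested.

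*Cdh16*, whose promoter drives the Cre, was at 889 ± 73.6 CPM (SD, n = 8) in wildtype and 920 ± 84.5 CPM (SD, n = 12) in PKD kidneys, with a log2FC of 0.05 (adjusted p = 0.529). *Pkd1* transcripts were at 68.7 ± 10.9 and 92.1 ± 15.1 CPM, with a log2FC of 0.42 (adjusted p = 0.00134) that was 0.54 against the R set (adjusted p = 0.000317) and 0.24 against the other 3 (adjusted p = 0.197), and so did not hold against both. The count is of the whole gene, so it does not show whether exons 2 to 11 were deleted.

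The first comparison asks which genes of these segments differed between cystic and wildtype kidneys. Of the 43 members, 24 were lower in PKD kidneys and 5 were higher. Among all genes tested, 25.0% were lower and 24.1% higher in the same comparison. These shares also stand beside the counts by segment and by context list given below. The median log2FC was -0.43 over the members and -0.01 over all genes. In 19 members the fall held against both sets of wildtype kidneys (7.99% of all genes did so), and in 3 members, *Aqp4*, *Elf5* and *Cldn19*, the rise did (11.4% of all genes). *Elf5* passed the filter on low counts only through the cystic groups, where it was higher. In 11 members every PKD kidney was below every wildtype kidney, against 2.07% of all genes, and in 2 every PKD kidney was above, against 5.21%. Scaled by library totals alone, without TMM, 23 members were lower and 10 higher, and of the 6993 genes then called 4901 were higher.

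**Figure D1:**
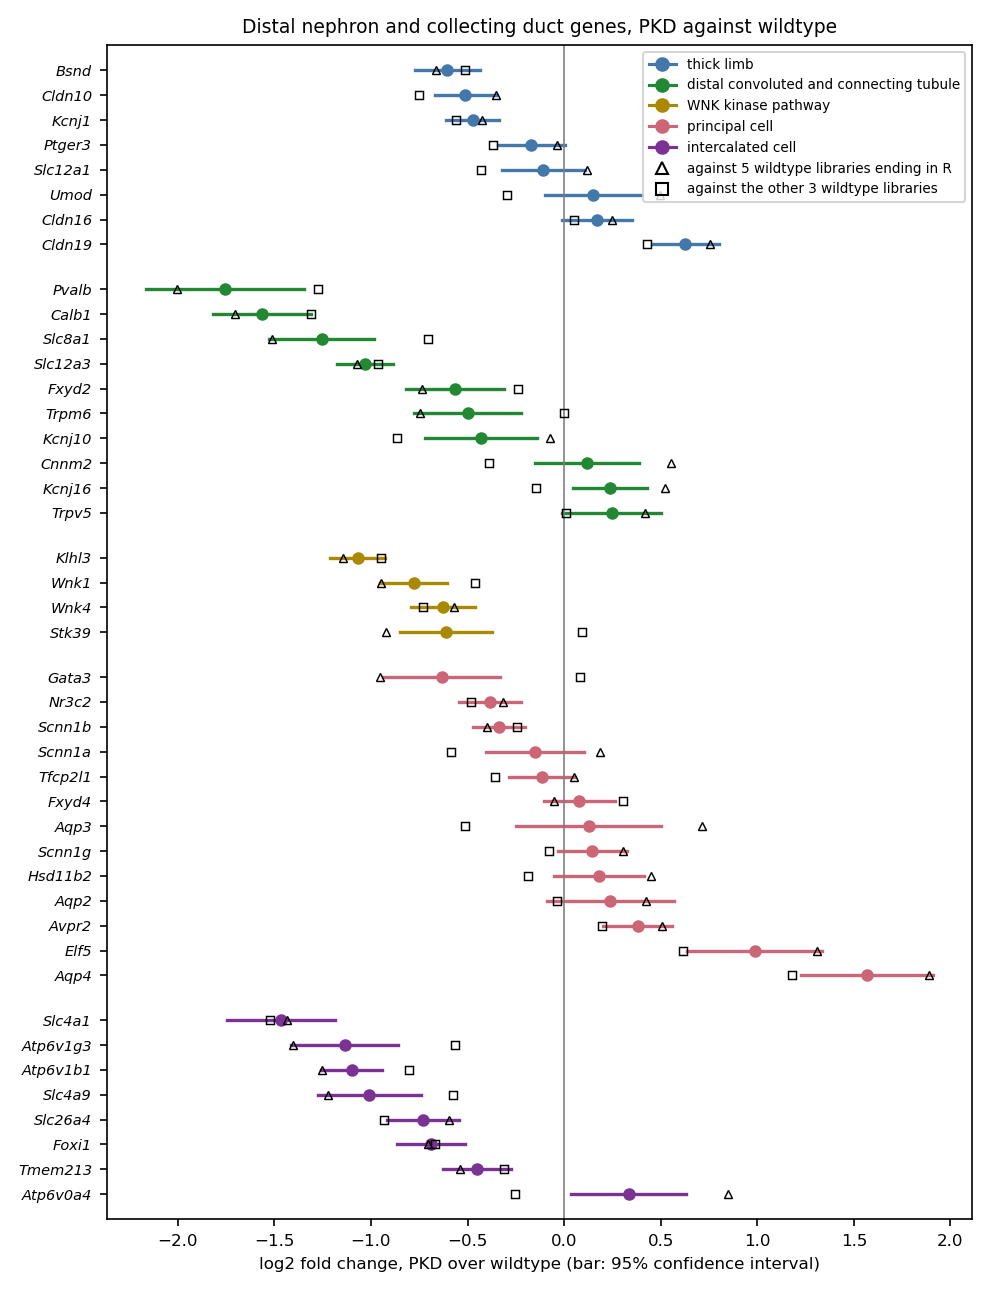
Log2 fold change of each of the 43 genes in PKD over wildtype kidneys (filled circle, with its 95% confidence interval), grouped and coloured by tubule segment, with the value against the 5 wildtype kidneys of the R set (open triangle) and against the other 3 (open square). Falls of the intercalated cell and distal convoluted tubule genes lie left of 0 for all 3 symbols in most rows, while the symbols of several principal cell and thick limb genes lie on either side of 0.

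Of 10 genes of the distal convoluted and connecting tubules, 7 were lower in PKD kidneys, 1 was higher and 2 were not called, and 4 of the falls held against both sets. *Slc12a3* (ENSMUSG00000031766), which encodes NCC, the target of thiazide diuretics, read 952 to 1219 CPM (median 996) in the 8 wildtype kidneys, 413 to 623 CPM (median 504) in the 12 PKD kidneys and 453.5 to 649.7 CPM (median 533) in the 12 PKD + Salsalate kidneys. No PKD or PKD + Salsalate kidney reached the lowest wildtype value, and the log2FC of PKD over wildtype was -1.03 (SE 0.07, adjusted p = 3.51e-13). Against the R set it was -1.07, and against the other 3 it was -0.96.

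Calbindin-D28k, the cytosolic calcium carrier of the distal convoluted and connecting tubules, is encoded by *Calb1*. Its level was 202 to 454 CPM (median 278) in wildtype, 74.0 to 122 CPM (median 96.6) in PKD and 82.7 to 176 CPM (median 114.5) in PKD + Salsalate kidneys. All 24 kidneys of the cystic groups were below the lowest wildtype kidney, with a log2FC of -1.56 (SE 0.12, adjusted p = 4.86e-12) in PKD. *Pvalb*, which encodes parvalbumin, a calcium buffer of the early distal convoluted tubule, read 12.5 to 30.3 CPM (median 18.7) in wildtype, 2.93 to 9.68 CPM (median 5.40) in PKD and 3.08 to 11.6 CPM (median 8.77) in PKD + Salsalate kidneys. The groups again did not overlap with wildtype, and its log2FC of -1.76 (SE 0.20, adjusted p = 1.11e-08) was the lowest of the 43 genes. *Slc8a1*, the sodium-calcium exchanger by which calcium leaves the cell on the blood side, read 66.5 to 180 CPM (median 94.0) in wildtype and 30.7 to 52.7 CPM (median 47.4) in PKD kidneys, without overlap. The size of its fall depended on the wildtype set: the log2FC was -1.51 against the R set and -0.70 against the other 3.

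The channels of calcium and magnesium entry from the urine were not called lower against both sets. *Trpv5*, the channel by which calcium enters from the urine, was at 6.17 to 10.3 CPM (median 7.48) in wildtype and 6.53 to 12.7 CPM (median 9.00) in PKD kidneys, and its log2FC of 0.25 did not pass the test (adjusted p = 0.106). It was 0.42 against the R set (adjusted p = 0.0141) and 0.01 against the other 3 (adjusted p = 0.965), and it passed without wildtype replicate 7 (0.31, adjusted p = 0.0436) and when scaled by library totals (0.36, adjusted p = 0.0288). *Trpm6*, the magnesium channel of the distal convoluted tubule, was called lower with a log2FC of -0.50 (adjusted p = 0.00304), but the 5 kidneys of the R set (18.2 to 40.0 CPM) lay above the other 3 (14.3 to 17.5 CPM), and against those 3 the log2FC was 0.00 (adjusted p = 0.996). *Cnnm2*, which also serves magnesium transport, showed opposite signs, 0.56 against the R set (adjusted p = 3.13e-05) and -0.39 against the other 3 (adjusted p = 0.00741). *Kcnj10* and *Kcnj16* encode the potassium channel subunits Kir4.1 and Kir5.1 of the blood-side membrane. *Kcnj10* was called lower (log2FC -0.43, adjusted p = 0.0128) and *Kcnj16* higher (0.24, adjusted p = 0.0348), and neither call held against both sets. Without wildtype replicate 7 the adjusted p of *Kcnj10* was 0.0532, and that of *Kcnj16* was between 0.0503 and 0.102 without any 1 of 9 kidneys. *Fxyd2* was lower by the main test (log2FC -0.57, adjusted p = 0.00035) and had a log2FC of -0.24 (adjusted p = 0.228) against the 3 kidneys outside the R set.

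Other genes of the distal convoluted and connecting tubule, listed as context and not among the 43, were tested in 8 of 9 cases. Of these 5 were lower in PKD and 0 higher, with 3 not called. Context genes with the smallest adjusted p were *Klk1*, which encodes tissue kallikrein of the connecting tubule (log2FC -1.55, adjusted p = 5.16e-14), *Sall3*, a transcription factor gene (-1.07, adjusted p = 1.07e-10), and *Emx1*, a homeobox gene (-0.71, adjusted p = 6.67e-09). Each of these kept its sign against both wildtype sets, with -1.40, -0.996 and -0.73 against the 3 kidneys outside the R set.

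All 4 genes of the kinase pathway that controls NCC were called lower in PKD kidneys. WNK1 and WNK4 phosphorylate the kinases SPAK and OSR1, which phosphorylate NCC, and KLHL3 marks the WNK kinases for degradation. *Klhl3* (ENSMUSG00000014164) read 55.3 to 73.1 CPM (median 62.6) in wildtype, 27.6 to 33.6 CPM (median 29.4) in PKD and 25.8 to 38.97 CPM (median 33.4) in PKD + Salsalate kidneys. The groups did not overlap with wildtype, and its log2FC in PKD of -1.07 (SE 0.07) had the smallest adjusted p of the 43 genes (9.53e-14). *Wnk1* was at 320 to 570 CPM (median 440) in wildtype and 231 to 300 CPM (median 254) in PKD kidneys, with a log2FC of -0.78 (SE 0.09, adjusted p = 5.76e-09). *Wnk4* was at 247 to 334 CPM (median 283) and 157 to 219 CPM (median 183), with a log2FC of -0.63 (SE 0.08, adjusted p = 1.02e-07). Neither overlapped between wildtype and PKD, and all 3 of these falls held against both sets. The count of *Wnk1* sums its transcripts, so the short kidney-specific form and the full-length kinase were not separated.

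*Stk39*, which encodes SPAK, depended on the wildtype set. It was called lower with a log2FC of -0.61 (SE 0.12, adjusted p = 6.59e-05). The 5 kidneys of the R set lay at 64.0 to 75.7 CPM, while the other 3 lay at 31.7 to 34.5 CPM, within the range of the PKD kidneys (30.6 to 41.3 CPM), and against those 3 the log2FC was 0.09 (adjusted p = 0.32). *Oxsr1* (OSR1) and *Cul3*, the partner of KLHL3, are widely expressed and were not members. *Oxsr1* had a log2FC of -0.18 (adjusted p = 0.0142) and *Cul3* of -0.05 (adjusted p = 0.543).

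**Figure D2:**
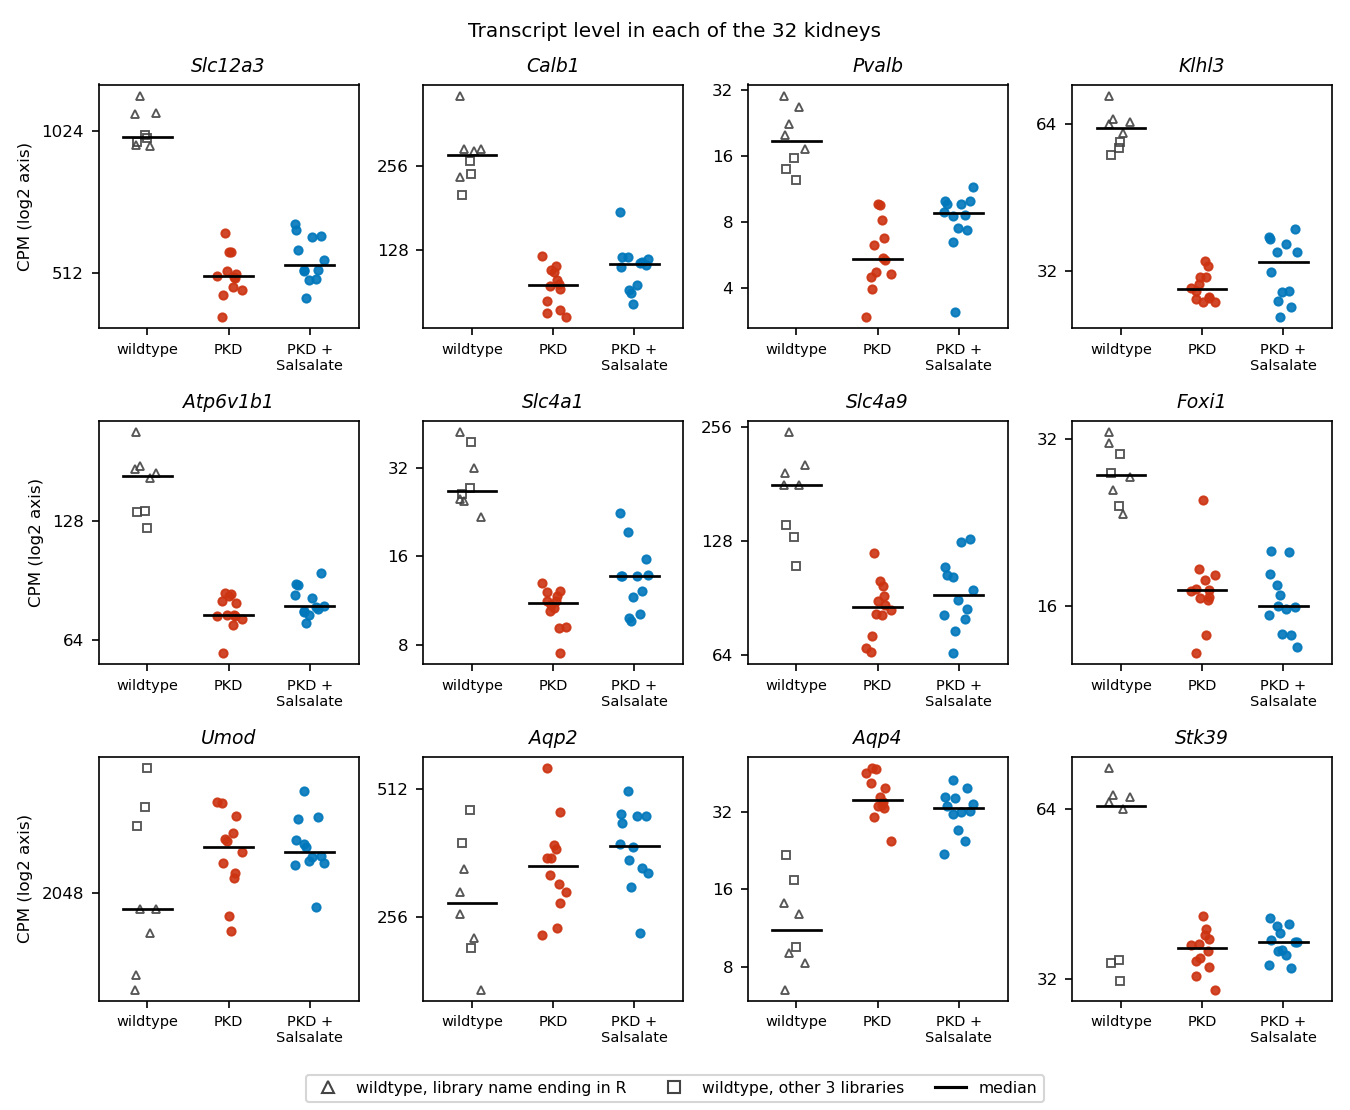
Level of 12 of the genes in each of the 32 kidneys, in CPM on a log2 axis, by group, with the group's median as a bar and the 2 sets of wildtype kidneys as open triangles (R set) and open squares (the other 3). Slc12a3, Calb1, Pvalb, Klhl3, Atp6v1b1 and Slc4a1 do not overlap between wildtype and PKD, Aqp4 does not overlap in the other direction, and the wildtype squares of Umod and Stk39 stand apart from the triangles.

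Intercalated cell genes were lower in nearly every case. Of 8 members, 7 were lower in PKD kidneys and 0 higher, and all 7 falls held against both sets of wildtype kidneys. *Atp6v1b1* (ENSMUSG00000006269) encodes the B1 subunit of the proton pump (V-ATPase), which is mutated in distal renal tubular acidosis with deafness. Its level was 123 to 216 CPM (median 167) in wildtype, 59.1 to 84.0 CPM (median 74.1) in PKD and 70.7 to 94.5 CPM (median 77.8) in PKD + Salsalate kidneys. No kidney of either cystic group reached the lowest wildtype kidney, and the log2FC in PKD was -1.10 (SE 0.08, adjusted p = 5.24e-13). *Atp6v1g3*, the kidney form of the pump's G subunit, was at 37.5 to 84.2 CPM (median 57.6) in wildtype and 19.1 to 39.9 CPM (median 25.3) in PKD kidneys. Of the PKD kidneys, 11 were below the lowest wildtype value, with a log2FC of -1.14 (SE 0.14, adjusted p = 2.79e-08) that was -1.41 against the R set and -0.57 against the other 3.

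*Foxi1* encodes the forkhead transcription factor that is needed for the identity of intercalated cells. It read 23.4 to 32.9 CPM (median 27.5) in wildtype, 13.2 to 24.9 CPM (median 17.1) in PKD and 13.5 to 20.1 CPM (median 16.0) in PKD + Salsalate kidneys. All but 1 of the 12 PKD kidneys and all 12 PKD + Salsalate kidneys were below the lowest wildtype kidney. The log2FC in PKD was -0.69 (SE 0.09, adjusted p = 7.4e-08), with -0.71 and -0.67 against the 2 wildtype sets.

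Exchangers of both types of intercalated cell were lower. The chloride-bicarbonate exchanger AE1 of type A cells is encoded by *Slc4a1* (ENSMUSG00000006574), which read 21.8 to 42.4 CPM (median 26.7) in wildtype, 7.47 to 13.0 CPM (median 11.1) in PKD and 9.60 to 22.5 CPM (median 13.7) in PKD + Salsalate kidneys. Wildtype and PKD did not overlap, 1 PKD + Salsalate kidney reached the wildtype range, and the log2FC in PKD was -1.46 (SE 0.14, adjusted p = 2.08e-10). AE1 is also a protein of red blood cells, and the hemoglobin transcripts moved in the same direction, *Hbb-bs* from 198 ± 97.6 CPM (SD, n = 8) in wildtype to 56.3 ± 16.0 CPM (SD, n = 12) in PKD (log2FC -1.81) and *Hba-a1* from 189.7 ± 82.9 to 47.8 ± 13.2 CPM (log2FC -1.99). The part of red cell transcripts in the fall of *Slc4a1* was not tested. *Slc26a4*, pendrin of the urine-side membrane of type B cells, was at 35.8 to 63.1 CPM (median 51.4) in wildtype and 26.7 to 36.8 CPM (median 29.9) in PKD kidneys. Here 10 of 12 PKD kidneys lay below the wildtype range, with a log2FC of -0.73 (SE 0.09, adjusted p = 7.19e-08). *Slc4a9* (AE4), an anion exchanger of the blood-side membrane of type B cells, was at 110.2 to 249 CPM (median 180.0) and 65.3 to 119 CPM (median 85.6), with a log2FC of -1.01 (SE 0.13, adjusted p = 1.3e-07). *Tmem213*, a small membrane protein gene with intercalated cell expression, had the smallest of the 7 falls, a log2FC of -0.45 (SE 0.09, adjusted p = 7.21e-05).

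*Atp6v0a4*, the a4 subunit of the proton pump, was the member that was not called. Its level was 71.0 to 89.8 CPM in the R set, 151 to 203 CPM in the other 3 and 111 to 183 CPM in PKD kidneys, so the PKD kidneys lay above the first set and overlapped with the second. The log2FC was 0.34 (adjusted p = 0.0564) against all wildtype kidneys, 0.85 (adjusted p = 1.25e-08) against the first set and -0.25 (adjusted p = 0.08) against the second. It passed the test without wildtype replicate 6, 7 or 8 or PKD replicate 4 or 6 (log2FC 0.36 to 0.51, adjusted p 0.00138 to 0.0456). Against all wildtype kidneys it was also called higher with limma-voom (0.43, adjusted p = 0.0122). The same held with upper-quartile factors (0.37, adjusted p = 0.0309) and with library totals (0.44, adjusted p = 0.0132). The a4 subunit is also made in proximal tubules, whose summed markers were likewise higher in the second wildtype set. Whether proximal tubule RNA has a part in the levels of *Atp6v0a4* was not tested.

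The proton pump offered a comparison between its cell type-specific and its common subunits. Of 16 widely expressed subunits and accessory proteins, 5 were lower, 4 higher and 7 not called, with log2FC between -0.29 and 0.65 and a median of 0.02. The lower subunits with the smallest adjusted p were *Atp6v1e1* (-0.27, adjusted p = 2.77e-05), *Atp6v1h* (-0.26, adjusted p = 0.00016) and *Atp6v1a* (-0.29, adjusted p = 0.000311), and the higher ones were *Atp6v0c* (0.65, adjusted p = 0.00747), *Atp6ap2* (0.29, adjusted p = 0.0113) and *Atp6v0a1* (0.35, adjusted p = 0.0132). The rises of *Atp6v0c* and *Atp6v0a1* had the opposite sign against the 3 wildtype kidneys outside the R set (-0.15 and -0.16). Outside this list, *Atp6v1c2*, the intercalated cell form of the C subunit, fell by 1.27 (adjusted p = 2.42e-12), while *Atp6v1c1*, the common form of the same subunit, had a log2FC of 0.00 (adjusted p = 0.947). *Atp6v1c2* had the smallest adjusted p of the intercalated cell context genes, and *Atp6v1c1* was added after its value was seen. The value of *Atp6v0d2*, another intercalated cell isoform, is not given here. This pair therefore does not stand for all subunits. The intercalated cell isoforms did not all fall, since *Atp6v0a4*, given above, was not called (0.34, adjusted p = 0.0564).

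**Figure D3:**
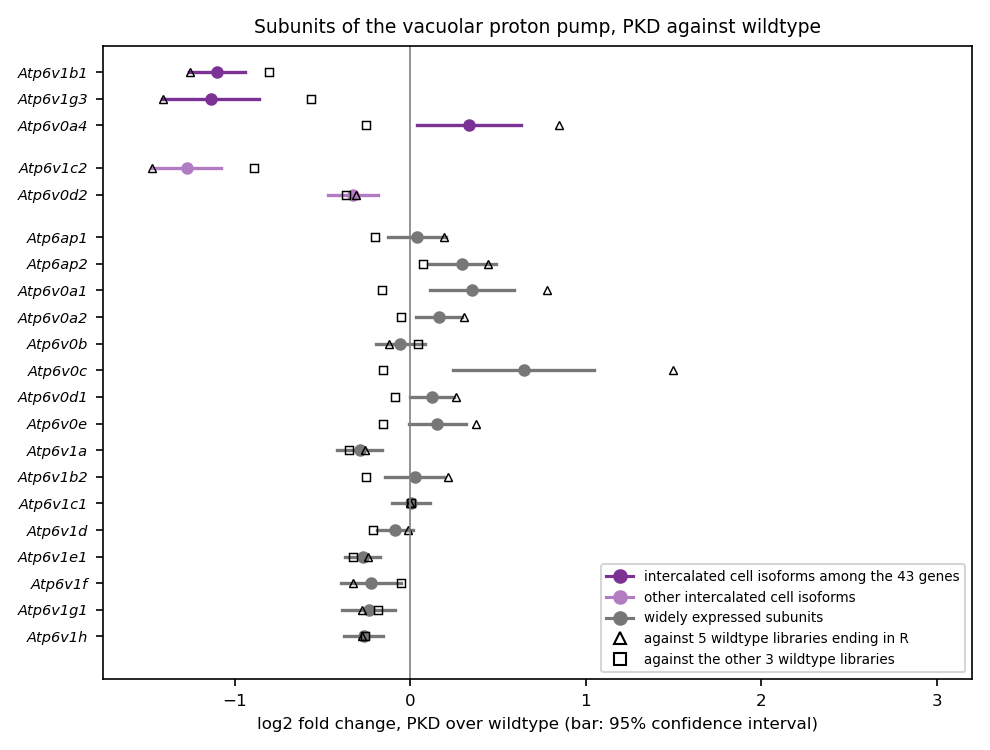
Log2 fold change in PKD over wildtype kidneys of the proton pump subunits, with 95% confidence intervals, for the 3 intercalated cell isoforms among the 43 genes, 2 further isoforms of these cells and 16 widely expressed subunits, and the value against each set of wildtype libraries (triangles and squares). Atp6v1b1, Atp6v1g3 and Atp6v1c2 lie at -1.10, -1.14 and -1.27, and Atp6v0a4, also an intercalated cell isoform, lies at 0.34. The value of Atp6v0d2, the other further isoform, is not stated here. The widely expressed subunits lie between -0.29 and 0.65.

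Of 17 other intercalated cell genes listed as context, 14 were tested, 8 were lower, 2 were higher and 4 were not called. Beside *Atp6v1c2*, the lower genes with the smallest adjusted p were *Insrr*, an alkali-sensing receptor of type B cells (-1.48, adjusted p = 2.97e-10), and *Oxgr1*, a receptor for 2-oxoglutarate (-0.75, adjusted p = 5.92e-08). The higher genes were *Car2*, carbonic anhydrase II, which other tubule cells also express (0.22, adjusted p = 0.00111), and *P2ry14*, a UDP-glucose receptor (0.42, adjusted p = 0.0117).

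The promoters of 4 genes are printed because *Foxi1* changed among the members and because 4 genes form ratios described further on. These ratios are *Aqp2* to *Atp6v1b1* and *Slc12a1* to *Slc12a3*, and the promoters of these genes are the ones printed. Each is the 250 bases before the start of the canonical transcript (GRCm39, GENCODE M39), written 5′ to 3′ on the strand of the gene, here the plus strand in all 4. Capitals mark exact matches, on either strand, to the forkhead core TGTTTAC and to the GATA core AGATAA, whose reverse complement is TTATCT. No match to 1 of these words overlaps a match to the other in the windows shown.
Atp6v1b1, chr6:83719717-83719966: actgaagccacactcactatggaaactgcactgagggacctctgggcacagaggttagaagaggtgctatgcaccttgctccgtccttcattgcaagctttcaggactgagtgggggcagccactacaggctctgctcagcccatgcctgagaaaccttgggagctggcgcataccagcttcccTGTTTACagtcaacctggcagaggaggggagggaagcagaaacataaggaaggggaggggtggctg
Slc12a3, chr8:95055579-95055828: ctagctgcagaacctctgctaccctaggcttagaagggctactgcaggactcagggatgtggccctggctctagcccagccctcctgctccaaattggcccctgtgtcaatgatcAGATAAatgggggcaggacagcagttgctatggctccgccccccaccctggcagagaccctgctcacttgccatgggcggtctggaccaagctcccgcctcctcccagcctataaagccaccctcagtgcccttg
Slc12a1, chr2:124994175-124994424: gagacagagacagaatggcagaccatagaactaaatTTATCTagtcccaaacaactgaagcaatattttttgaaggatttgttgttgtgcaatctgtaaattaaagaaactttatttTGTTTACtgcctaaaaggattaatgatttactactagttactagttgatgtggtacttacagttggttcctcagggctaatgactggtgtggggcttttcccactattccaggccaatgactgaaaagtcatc
Aqp2, chr15:99476686-99476935: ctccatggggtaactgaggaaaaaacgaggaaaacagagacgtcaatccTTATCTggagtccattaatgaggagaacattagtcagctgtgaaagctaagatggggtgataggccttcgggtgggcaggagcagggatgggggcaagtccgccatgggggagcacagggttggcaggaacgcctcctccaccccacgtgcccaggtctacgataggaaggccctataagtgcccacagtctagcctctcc
The forkhead word begins 66 bases before the start of *Atp6v1b1* and 133 bases before that of *Slc12a1*. It was found in the windows of 4 of the 43 members, also in those of *Avpr2* and *Slc4a9*, and in 2.72% of the 21770 promoters searched. The windows of *Slc4a1* and *Slc26a4*, the genes of the remaining ratio, are not printed and held 0 forkhead matches. The GATA word was found in 7 of the 43, *Aqp2*, *Kcnj1*, *Scnn1b*, *Scnn1g*, *Slc12a1*, *Slc12a3* and *Slc4a1*, and in 9.6% of all promoters. These are matches of letters and do not show that a factor binds there.

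Genes of principal cells went in both directions, as did all genes tested, of which 25.0% were lower and 24.1% higher. Of 13 members, 3 were lower, 3 higher and 7 not called. The wildtype sets differed from each other in 9 of them, against 48.1% of all genes tested. Of the 3 aquaporins, the water channels, 1 was called. *Aqp4* (ENSMUSG00000024411), by which water leaves principal cells on the blood side, read 6.54 to 21.7 CPM (median 11.2) in wildtype, 24.7 to 47.4 CPM (median 35.7) in PKD and 22.0 to 42.4 CPM (median 33.0) in PKD + Salsalate kidneys. Every kidney of both cystic groups was above the highest wildtype kidney. Its log2FC in PKD of 1.57 (SE 0.17, adjusted p = 2.74e-09) was the highest of the 43 genes, and it was 1.89 against the R set and 1.18 against the other 3.

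*Aqp2*, the vasopressin-regulated channel of the urine side, read 172 to 457 CPM (median 276) in wildtype, 231 to 574 CPM (median 336) in PKD and 234 to 507 CPM (median 376) in PKD + Salsalate kidneys. These ranges overlapped, and the log2FC of 0.24 (SE 0.16, adjusted p = 0.225) did not pass the test in PKD. Against the R set alone it was 0.43 (adjusted p = 0.0352), and against the other 3 it was -0.04 (adjusted p = 0.904). *Aqp3*, the other blood-side channel, was at 44.5 to 58.5 CPM in the R set and at 109 to 115 CPM in the other 3, with PKD kidneys at 51.0 to 115 CPM between and across them. Its log2FC was 0.71 (adjusted p = 0.000272) against the first set and -0.51 (adjusted p = 0.0211) against the second. *Avpr2*, the vasopressin receptor, was at 11.3 to 19.3 CPM (median 17.1) in wildtype and 17.9 to 25.6 CPM (median 20.9) in PKD kidneys. It was called higher (log2FC 0.38, SE 0.09, adjusted p = 0.000571), with 0.50 (adjusted p = 7.75e-05) against the R set and 0.20 (adjusted p = 0.145) against the other 3. Of the 2886 exon bases of *Avpr2*, 2347 overlap exons of *Arhgap4* on the opposite strand. Reads are stated to have been counted by strand, and 73.6% to 83.1% of the reads of a library were counted on genes. Whether reads of *Arhgap4* entered the count of *Avpr2* was not tested, so the values of *Avpr2* are uncertain. Opposite-strand exons also overlap other members, such as *Cldn19* (925 of 4283 bases), *Wnk4* (755 of 4374) and *Umod* (539 of 2763).

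ENaC, the sodium channel that aldosterone controls, has 3 subunits among the members. *Scnn1b* was at 50.4 to 68.1 CPM (median 53.7) in wildtype and 39.8 to 50.9 CPM (median 44.2) in PKD kidneys, and 11 of 12 PKD kidneys lay below the wildtype range, with a log2FC of -0.34 (SE 0.07, adjusted p = 7.78e-05) that held against both sets. *Scnn1a* and *Scnn1g* were not called, with log2FC of -0.15 (adjusted p = 0.317) and 0.15 (adjusted p = 0.168). Against the sets taken singly, *Scnn1a* was at 0.19 (adjusted p = 0.135) against the R set and at -0.59 (adjusted p = 0.00047) against the other 3. *Scnn1g* was at 0.31 (adjusted p = 0.00548) and -0.08 (adjusted p = 0.586), and it passed the test without wildtype replicate 7 (0.22, adjusted p = 0.0266). Scaled by library totals, *Scnn1g* passed as well (0.25, adjusted p = 0.0228). *Nr3c2*, the mineralocorticoid receptor that binds aldosterone, was at 11.6 to 14.9 CPM (median 12.2) and 8.01 to 12.4 CPM (median 9.63). It was lower with a log2FC of -0.38 (SE 0.08, adjusted p = 0.000171), also against both sets. *Hsd11b2*, the enzyme that shields this receptor from glucocorticoids, had a log2FC of 0.18 (adjusted p = 0.191), which was 0.45 (adjusted p = 0.000724) against the R set and -0.19 (adjusted p = 0.18) against the other 3. It passed the test without wildtype replicate 7 (0.28, adjusted p = 0.0288) and when scaled by library totals (0.29, adjusted p = 0.0335). *Fxyd4*, a partner of the sodium pump that corticosteroids induce, had a log2FC of 0.08 (adjusted p = 0.485), with -0.05 (adjusted p = 0.665) against the R set and 0.30 (adjusted p = 0.0338) against the other 3. Among 10 context genes that respond to mineralocorticoids or act on ENaC or the WNK pathway, 3 were lower, 1 higher and 6 not called. The lower genes were *Sgk1*, an aldosterone-induced kinase (-0.42, adjusted p = 0.000909), *Per1*, a clock gene that aldosterone induces (-0.53, adjusted p = 0.00337), and *Oxsr1*, given above, and the higher gene was *Tmprss4*, a membrane protease (0.64, adjusted p = 0.00444).

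Of 3 transcription factors of principal cells, 1 was called higher and 1 lower. *Elf5* rose from 1.56 to 3.92 CPM (median 1.74) in wildtype to 3.31 to 6.24 CPM (median 4.94) in PKD kidneys, of which 11 were above the wildtype range, with a log2FC of 0.99 (SE 0.17, adjusted p = 1.78e-05). The wildtype median of *Elf5* lay under the cutoff of the filter, a log2 CPM of 1. This gene passed the filter only through the cystic groups, so its rise is not independent of the filter. *Tfcp2l1*, which is needed for the mixed pattern of cell types in the collecting duct, was not called (-0.11, adjusted p = 0.262), with 0.05 (adjusted p = 0.627) against the R set and -0.36 (adjusted p = 0.00465) against the other 3. *Gata3* was called lower (log2FC -0.63, SE 0.15, adjusted p = 0.000715), but the R set lay at 49.6 to 75.9 CPM, the other 3 at 23.2 to 32.4 CPM and PKD kidneys at 23.6 to 48.7 CPM, and the log2FC against the 3 was 0.08 (adjusted p = 0.671). Of 10 other principal cell and collecting duct genes listed as context, 6 were higher, 1 lower and 3 not called. The rises with the smallest adjusted p were *Elf3*, an epithelial transcription factor (1.33, adjusted p = 2.29e-12), and the keratin genes *Krt18* (0.95, adjusted p = 2.21e-09) and *Krt8* (0.73, adjusted p = 3.9e-08), which injured tubules express as well, and the fall was that of *Ehf*, a transcription factor (-0.31, adjusted p = 0.00209). Among 11 genes of vasopressin and cAMP signalling, 4 were lower, 1 higher and 6 not called. The lower genes with the smallest adjusted p were *Pde4c* (-0.42, adjusted p = 0.000157), a phosphodiesterase, *Prkar2a* (-0.43, adjusted p = 0.000489), a regulatory subunit of protein kinase A, and *Gnas* (-0.16, adjusted p = 0.00238), the stimulatory G protein, and the higher gene was *Pde4d* (0.34, adjusted p = 0.0017).

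Of 8 thick limb members, 3 were lower, 1 was higher and 4 were not called. NKCC2, the target of loop diuretics, is encoded by *Slc12a1*, which was at 587 to 1072 CPM (median 790.5) in wildtype, 571 to 849 CPM (median 755) in PKD and 636 to 972 CPM (median 757) in PKD + Salsalate kidneys. The ranges overlapped and the log2FC of -0.11 (SE 0.11, adjusted p = 0.41) did not pass the test, with 0.12 (adjusted p = 0.334) against the R set and -0.43 (adjusted p = 0.004) against the other 3. *Umod* was at 1416 to 1925 CPM in the R set and 2640 to 3289 CPM in the other 3, and PKD kidneys spanned 1767 to 2892 CPM between them. Its log2FC was 0.49 (adjusted p = 0.00017) against the first set, -0.29 (adjusted p = 0.0455) against the second and 0.15 (adjusted p = 0.314) against both together.

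Potassium is returned to the urine through ROMK, encoded by *Kcnj1*, and *Bsnd* encodes barttin, an accessory protein of the chloride route on the blood side. *Kcnj1* was at 135 to 167 CPM (median 155) in wildtype, 89.5 to 129 CPM (median 109.7) in PKD and 92.3 to 132 CPM (median 110.6) in PKD + Salsalate kidneys. *Bsnd* was at 61.8 to 84.4 CPM (median 71.7), 40.6 to 60.9 CPM (median 45.1) and 41.2 to 58.4 CPM (median 47.2). Neither gene overlapped between wildtype and the cystic groups, with log2FC in PKD of -0.47 (SE 0.07, adjusted p = 5.99e-07) and -0.60 (SE 0.08, adjusted p = 2.79e-07).

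Among the claudins, which set the ion selectivity of the tight junction, *Cldn10*, whose thick limb form is sodium-selective, was lower (log2FC -0.51, SE 0.08, adjusted p = 1.71e-06). The count of *Cldn10* sums its transcripts, so its forms were not separated. *Cldn19*, which with *Cldn16* is needed for magnesium and calcium uptake between cells, was higher, at 27.8 to 52.0 CPM (median 44.2) in wildtype and 58.8 to 70.4 CPM (median 68.5) in PKD kidneys. All 12 PKD kidneys were above the wildtype range (log2FC 0.63, SE 0.08, adjusted p = 2.77e-07). *Cldn16* itself was not called (0.17, adjusted p = 0.111), with 0.25 (adjusted p = 0.0471) against the R set and 0.05 (adjusted p = 0.753) against the other 3, and it passed the test without PKD replicate 3 (0.20, adjusted p = 0.0457). Scaled by library totals, *Cldn16* passed as well (0.28, adjusted p = 0.0184). *Ptger3*, the prostaglandin E2 receptor EP3, was not called either (-0.17, adjusted p = 0.0969), with -0.04 (adjusted p = 0.739) and -0.37 (adjusted p = 0.00615) against these sets, and it passed without wildtype replicate 1 or 4 (adjusted p = 0.0402 and 0.0496). Of 7 tested thick limb genes listed as context, 5 were lower and 1 higher. *Egf*, whose product this segment and the distal convoluted tubule secrete (-1.28, adjusted p = 4.12e-09), and *Irx1*, a homeobox gene (-0.70, adjusted p = 8.89e-05), were lower, and *Cldn3* was higher (0.78, adjusted p = 6.08e-05).

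Ratios of 2 genes within a kidney compare segments independently of library scaling. The difference of a log2 ratio between groups does not depend on gene length either. Of the 3 ratios in 3 comparisons, 9 tests in all, 2-sided permutation tests were adjusted together by the Benjamini-Hochberg method. The log2 ratio of *Aqp2* (principal cells) to *Atp6v1b1* (intercalated cells) was 0.81 ± 0.57 (SD, n = 8) in wildtype, 2.15 ± 0.42 (SD, n = 12) in PKD and 2.22 ± 0.27 (SD, n = 12) in PKD + Salsalate kidneys. PKD exceeded wildtype by 1.34 (exact permutation p = 3.18e-05, adjusted p = 7.14e-05). The difference was 1.67 against the R set and 0.80 against the other 3, and only 1 wildtype kidney, at 1.75, was above the lowest PKD kidney, at 1.65.

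The log2 ratio of *Slc12a1* (thick limb) to *Slc12a3* (distal convoluted tubule) was -0.41 ± 0.37 (SD, n = 8) in wildtype, 0.55 ± 0.22 (SD, n = 12) in PKD and 0.51 ± 0.19 (SD, n = 12) in PKD + Salsalate kidneys. PKD exceeded wildtype by 0.95 (exact permutation p = 3.18e-05, adjusted p = 7.14e-05), by 1.20 against the R set and by 0.54 against the other 3. For *Slc4a1* (type A cells) to *Slc26a4* (type B cells) the log2 ratio was -0.78 ± 0.50 (SD, n = 8) in wildtype, -1.51 ± 0.23 (SD, n = 12) in PKD and -1.22 ± 0.30 (SD, n = 12) in PKD + Salsalate kidneys. It was lower in PKD than in wildtype by a difference of -0.73 (exact permutation p = 3.18e-05, adjusted p = 7.14e-05), and -0.57 against the 3 wildtype kidneys outside the R set. *Slc4a1* is also a gene of red blood cells, and the part of red cell transcripts in this ratio was not tested.

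**Figure D4:**
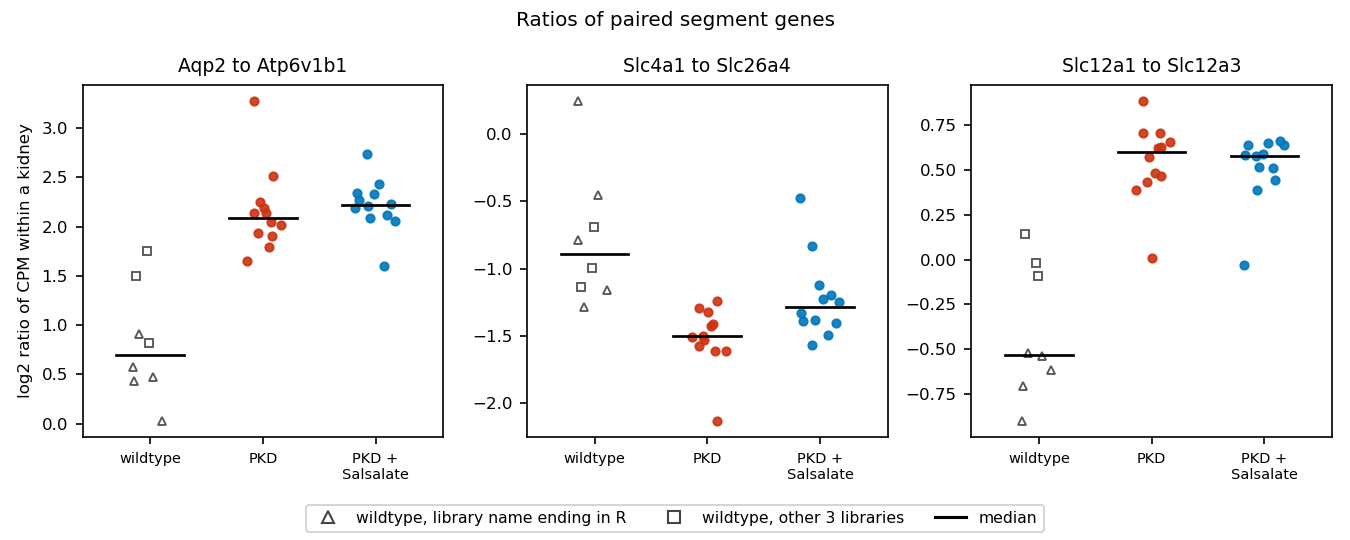
Log2 ratio of the CPM of 2 genes within each of the 32 kidneys, by group, with the median as a bar and the 2 sets of wildtype kidneys as triangles and squares. For Aqp2 to Atp6v1b1 the groups lie at means of 0.81, 2.15 and 2.22, for Slc4a1 to Slc26a4 at -0.78, -1.51 and -1.22, and for Slc12a1 to Slc12a3 at -0.41, 0.55 and 0.51, in the order wildtype, PKD and PKD + Salsalate.

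The second comparison asks whether 2 weeks of salsalate changed these genes in PKD kidneys. None of the 43 members was called between PKD + Salsalate and PKD by edgeR, DESeq2 or limma-voom, while edgeR called 0.580% of all genes. Without PKD + Salsalate replicate 11, 1 member was called, *Pvalb*, with a log2FC of 0.62 (adjusted p = 0.0497). The log2FC of the members lay between -0.19 and 0.52 with a median of 0.03, against -0.01 over all genes tested, and the lowest adjusted p was 0.213. Of the 43, 31 were above 0. The share of all genes above 0 is not given, so this count is not read as a shift of the members. For 41 of the 43 the 95% confidence interval lay within 0.5 of 0 on the log2 scale, and the median half-width of the interval was 0.19.

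An unadjusted p under 0.05 was reached by 6 members (14.0%), against 10.3% of all genes tested, and all 6 were higher with salsalate and missed the adjusted threshold. How the 10.3% split by direction is not given. Their log2FC were 0.52 for *Pvalb* (95% interval 0.14 to 0.90, adjusted p = 0.229), 0.36 for *Slc4a1* (0.11 to 0.62, adjusted p = 0.213), 0.24 for *Calb1* (0.01 to 0.46, adjusted p = 0.462), 0.19 for *Ptger3* (0.04 to 0.35, adjusted p = 0.303), 0.16 for *Cldn10* (0.02 to 0.30, adjusted p = 0.367) and 0.16 for *Wnk4* (0.01 to 0.30, adjusted p = 0.445). In *Pvalb*, 11 of 12 PKD + Salsalate kidneys were above the PKD median, and in *Slc4a1* 9 of 12 were. Hemoglobin transcripts stood at a log2FC of 0.38 for *Hbb-bs* (adjusted p = 0.581) and 0.41 for *Hba-a1* (adjusted p = 0.523) in the same comparison.

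**Figure D5:**
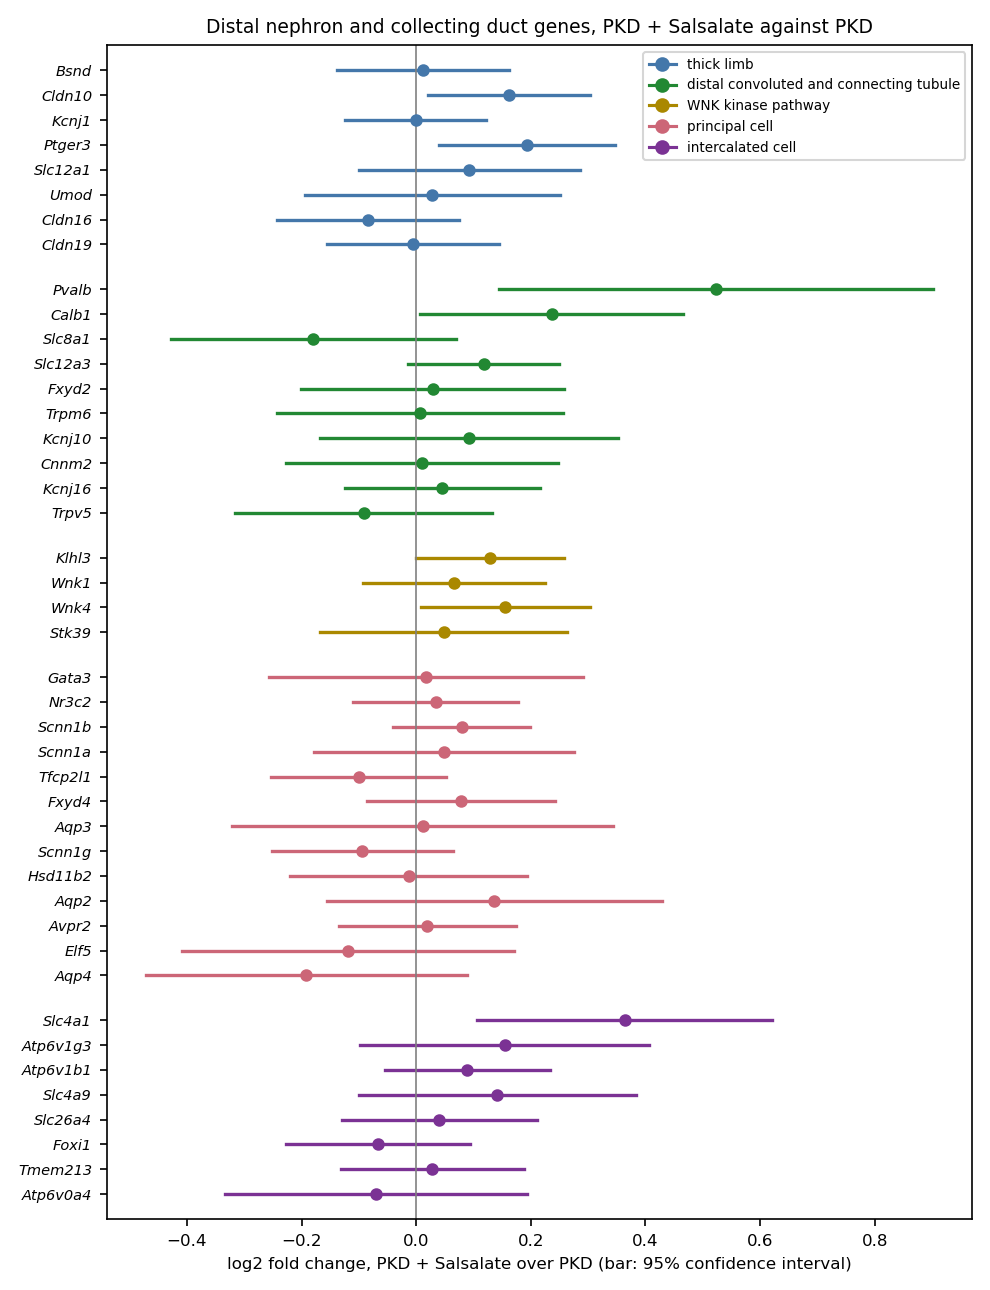
Log2 fold change of each of the 43 genes in PKD + Salsalate over PKD kidneys with its 95% confidence interval, grouped and coloured by tubule segment. The values lie between -0.19 and 0.52, and the intervals of 41 of the 43 lie within 0.5 of 0.

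Of the 3 ratios, that of *Slc4a1* to *Slc26a4* differed between the cystic groups. It was higher in PKD + Salsalate than in PKD by 0.29 (permutation p = 0.00738, adjusted p = 0.0111), between 0.22 and 0.32 with any 1 kidney left out. Against wildtype it was lower, with a difference of -0.44 (exact permutation p = 0.0252, adjusted p = 0.0324), which did not hold against the 3 wildtype kidneys outside the R set (-0.28, adjusted p = 0.18) or without wildtype replicate 1 (-0.29, adjusted p = 0.0631). The ratios of *Aqp2* to *Atp6v1b1* and of *Slc12a1* to *Slc12a3* differed between PKD + Salsalate and PKD by 0.06 (permutation p = 0.687, adjusted p = 0.707) and -0.03 (permutation p = 0.707, adjusted p = 0.707). *Slc4a1* is also a gene of red blood cells, and the uncalled log2FC of *Hbb-bs* and *Hba-a1* with salsalate were 0.38 and 0.41. The part of red cell transcripts in the ratio of *Slc4a1* to *Slc26a4* was not tested.

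Against wildtype, PKD + Salsalate kidneys had 24 members lower (23.2% of all genes) and 5 higher (21.8% of all genes). In 18 members the fall held against both sets of wildtype kidneys (6.04% of all genes did so), and in 2, *Aqp4* and *Cldn19*, the rise did (9.87% of all genes). Falls or rises that held against both sets in PKD but not here were those of *Scnn1b*, at -0.16 (adjusted p = 0.144) against the 3 kidneys outside the R set, and of *Elf5*, at 0.51 (adjusted p = 0.058) against the same 3. This comparison uses the same wildtype kidneys as the first, so the values are set side by side only. By segment, the thick limb had 3 lower and 1 higher in both comparisons, the WNK pathway 4 lower in both and the intercalated cells 7 lower in both. The distal convoluted and connecting tubule had 6 lower and 1 higher with salsalate and 7 lower and 1 higher without, and the principal cells 4 lower and 3 higher with salsalate and 3 lower and 3 higher without. The 2 genes behind this were *Kcnj10*, at a log2FC of -0.34 (adjusted p = 0.0517) with salsalate and -0.43 without, and *Tfcp2l1*, at -0.21 (adjusted p = 0.0355) and -0.11. The log2FC of *Tfcp2l1* with salsalate was -0.45 against the 3 wildtype kidneys outside the R set (adjusted p = 0.00066) and -0.05 against the R set (adjusted p = 0.606). Its call was lost without wildtype replicate 7 (adjusted p = 0.135) or 8 (adjusted p = 0.0837), without PKD + Salsalate replicate 5, 6 or 9 (adjusted p 0.0504 to 0.0555), with library totals (adjusted p = 0.255), with upper-quartile factors (adjusted p = 0.0513), without the filter on low counts (adjusted p = 0.128), in the fit of only the groups compared (adjusted p = 0.0508) and with the replicate block (adjusted p = 0.0891). The median log2FC over the intercalated cell members was -0.81 with salsalate and -0.87 without, and over the WNK pathway members -0.64 and -0.70.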

How the data were processed

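Kidney tissue of 32 mice was profiled by poly(A) RNA sequencing. Per the labels, the authors trimmed reads with cutadapt 2.10, aligned them with STAR 2.7.5a to GRCm39 and counted them by strand on Ensembl release 103 genes with HTSeq 0.12.4, and they deposited raw counts for 53700 genes, with 5 summary lines that were left out of the totals. Groups and replicate numbers came from the sample titles, and the 32 kidneys were taken as separate animals.

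The analysis ran in R 4.3.3 (edgeR 4.0.16). A gene was kept if its log2 CPM exceeded 1 in 25% or more of the kidneys, libraries were scaled by TMM, and all 3 groups entered 1 fit without covariates and were compared 2-sided with glmQLFTest, with Benjamini-Hochberg adjustment over the 13961 genes tested. Ratios were compared by exact enumeration, or by 100000 permutations where both groups had 12 kidneys (SciPy 1.17.1). Positions and exon lengths came from GENCODE M39, which holds 52610 of the gene identifiers. No 2 kidneys had identical counts.

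The members and the context lists were chosen with earlier results of these data known, and the division of the members into segments was written after the files were opened. All members are named, and of each context list up to 3 rises and 3 falls with the smallest adjusted p, to which *Atp6v1c1*, *Cul3* and the hemoglobin genes were added after their values were seen. 1 thick limb context gene that this rule selects is not reported here. Comparisons with the 2 wildtype sets were set as alternatives, along with other scalings, filters and tools (DESeq2 1.42.0, limma 3.58.1), the replicate block and leaving out each kidney.

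The gene-level test was tested on simulated data with known changes between PKD and wildtype. It recovered 83.7% of the changes of 0.5 and 98% of those of 1 on the log2 scale, with 11 false calls. All simulated wildtype kidneys shared the same mean of a gene. The simulation therefore cannot show how the difference between the wildtype sets affects the calls.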

Additional observations from a re-analysis of the deposited data

Results flagged for a closer look

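In the wildtype group, *Calb1* was at 454 CPM in replicate 1, and the nearest of the other 7 kidneys was at 294 CPM. The gap was 0.537 of the whole range of the group, above Dixon's 95% limit for 8 samples. The 43 members and the 3 ratios were looked at in this way, 46 in all, and chance alone gives such a gap in about 1 of 20. Without this kidney *Calb1* was still called lower in PKD.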

How the results depend on the processing

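Between 28 and 33 members were called in PKD against wildtype, and between 28 and 31 in PKD + Salsalate against wildtype, under the other scalings, filters, tools and the fit of only the groups compared, and 0 of 43 in PKD + Salsalate against PKD under each of them. Against only the wildtype libraries ending in R, 37 and 34 were called, and against only the others 31 and 28. With any 1 kidney left out the counts were 28 to 32, 0 to 1 and 28 to 31. The replicate numbers did not pair the kidneys: correlations of the deviations of same-numbered kidneys lay between -0.554 and 0.467, over 0.1 in 3 of 8 pairs of wildtype and PKD. With the replicate block 28, 0 and 29 members were called.

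Gene by gene, 376 values for PKD against wildtype in the other settings kept their side of the threshold and their sign, 7 gained a call and 4 lost it, and with 1 kidney left out 1355 stayed, 11 gained and 10 lost a call. Among values called in at least 1 of the fits compared, the sign changed only against the wildtype libraries not ending in R, and the cause was not tested. For PKD these were *Umod* (-0.29), *Trpm6* (0.00092), *Kcnj16* (-0.14), *Cnnm2* (-0.39), *Stk39* (0.092), *Aqp3* (-0.51) and *Gata3* (0.084), and for PKD + Salsalate *Trpm6* (0.012), *Kcnj16* (-0.092), *Cnnm2* (-0.37), *Stk39* (0.147), *Aqp3* (-0.50), *Gata3* (0.108) and *Atp6v0a4* (-0.32). The difference in the ratio of *Slc4a1* to *Slc26a4* between PKD + Salsalate and wildtype was -0.28 (adjusted p = 0.18) against those 3 libraries and between -0.51 and -0.29 with any 1 kidney left out, and it lost its call in 8 of these fits, without wildtype replicate 1 or 4 or PKD + Salsalate replicate 4, 5, 9, 10, 11 or 12 (adjusted p 0.0512 to 0.0631). The other 8 ratio results stayed on their side of the threshold.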
